A study of Mus musculus with 4 samples.

Results

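The genes for calcium channels, calcium pumps and TRP channels were examined in mouse pancreatic β-cells, as 55 genes among the 23420 rows of a table of read counts. Members were chosen by symbol: those starting with Cacn, Ryr, Itpr and a digit, Atp2a, Atp2b, Stim or Orai, or with Trpc, Trpm or Trpv and a digit, without Trpm6 and Trpm7. They also needed a sum of at least 15 counts over the 4 libraries. Of 64 symbols that fit, 9 fell short of that sum, and 6 of them had no count in any library. Cacng1, at 8 counts in all, lay just outside, and Atp2b3 and Cacna1s, at 17 counts each, lay just inside. The symbol rule also takes in Trpc4ap, which encodes a protein that associates with a TRP channel and is no channel itself.

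Calcium is the trigger of insulin release. When glucose is metabolised the β-cell membrane depolarises, voltage-gated channels open, and the calcium that enters sets off exocytosis of insulin granules. SERCA pumps load calcium into the endoplasmic reticulum, IP3 and ryanodine receptors let it out again, and when the store runs low STIM proteins sense it and open ORAI channels in the plasma membrane. PMCA pumps push calcium out of the cell, and TRP channels pass cations in response to calcium, lipids, heat or other signals.

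The libraries came from β-cells that had been sorted by flow cytometry after a 10-day course of doxycycline, which was given to kill most β-cells. The cells measured are thus those present after that course. Whether each of them had lived through it was not tested. The group labelled Bmal1KO, from Bmal1KO/DTA mice, had 2 libraries, and the group labelled Bmal1+/- (heterozygous, from Bmal1+/-DTA mice) also had 2. Every animal carried DTA, a diphtheria toxin transgene. The promoters that drive the transgene or any Cre, and the strain, age and sex of the mice, are not stated in the sources at hand. No label says whether replicate libraries are separate animals, and p-values therefore measure only how far these libraries vary, a spread that may be technical. The series asks how cells without Bmal1, a core part of the circadian clock, respond to the ablation.

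The targeted gene went against its label. Arntl, the gene of Bmal1, had 2490 and 2101 counts in the KO-labelled libraries, against 892 and 495 in the heterozygous-labelled ones (log2 fold change 1.89; edgeR adjusted p = 0.0175). Counts over a whole gene do not show whether a deleted part is missing. The groups are therefore named by label, and each direction compares KO-labelled with heterozygous-labelled libraries. Libraries held 31056116 and 32819576 counts for the KO label and 34776920 and 38020488 for the heterozygous label. Levels are CPM, the count of a gene relative to the library total, scaled by TMM, a factor that evens out library composition, and 1 count was worth 0.0258 to 0.0312 CPM. Without molecular identifiers, limits drawn from depth cover counting error only. The label of the tissue fits its markers: 9 of 9 β-cell marker genes were measured, with a summed level of 273806 and 234975 CPM in the KO-labelled libraries and 217072 and 276051 CPM in the heterozygous-labelled ones. Of these, Ucn3 and G6pc2, markers of mature β-cells, fell. Markers of other cells were measured too. The summed level of 10 stromal markers was 169 and 421 CPM for the KO label against 65.6 and 25.5 CPM for the heterozygous label, with 5 of 8 tested past the threshold as higher, Pdgfra at 0 in both libraries labelled heterozygous, and Thy1 at 0 in all but KO replicate 1. Summed acinar markers were at 128 and 81.8 (KO label) against 61.4 and 24.5 CPM (heterozygous label), with none of 9 tested past the threshold. Immune markers were at 189 and 574 (KO label) against 172 and 189 CPM (heterozygous label), with none of 7 tested past the threshold. Of these, Lyz2 alone was at 322 CPM in KO replicate 2. C1qa was at 74.6 and 87.7 CPM (KO label) against 66.2 and 79.6 CPM (heterozygous label). The 9 early genes listed for dissociation stress, of which 5 rose, were at 1582 and 919 (KO label) against 471 and 445 CPM (heterozygous label). The 4 α-cell markers summed to 1654 and 3322 CPM (KO label) against 1344 and 1289 CPM (heterozygous label), and endothelial markers to 17.1 and 5.03 CPM (KO label) against 1.45 and 2.60 CPM (heterozygous label). Duct markers ran the other way in sum, at 519 and 507 CPM (KO label) against 686 and 775 CPM (heterozygous label). That sum followed Krt7, at 368 and 397 CPM (KO label) against 567 and 663 CPM (heterozygous label). By gene, 4 of 5 tested duct markers had a higher fitted level in the KO label. The δ-cell markers overlapped, at 548 and 1421 CPM (KO label) against 963 and 1054 CPM (heterozygous label), and the marker of PP cells was at 1974 and 4008 CPM (KO label) against 1319 and 1046 CPM (heterozygous label). Smooth muscle and mural markers overlapped too, at 10.1 and 1.998 CPM (KO label) against 3.18 and 1.88 CPM (heterozygous label). None of 3 tested passed the threshold, and their sum was highest in KO replicate 1. The part of these other cells and of stress in the results was not tested.

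Per exon length, SERCA pumps made up most of the RNA of the group. Division of CPM by the exonic length in kb allows genes to be compared, here with the union of all exons of a gene in GENCODE release M21. Atp2a3 (SERCA3) was the highest member in each of the 4 libraries, at 184 and 213 CPM per kb in the KO-labelled libraries, against 385 and 353 CPM per kb in the heterozygous-labelled ones. Atp2a2, the SERCA gene found in most cells, came next at 165 and 176 (KO label) against 162 and 202 CPM per kb (heterozygous label). In the KO-labelled libraries the levels of both pumps lay close together, and in the heterozygous-labelled ones Atp2a3 lay well above. Both together held 74.1% of the summed level per kb of the 55 members. Trpc4ap followed at 36.3 and 36.4 (KO label) against 38.3 and 37.8 CPM per kb (heterozygous label), then Cacnb3, a β subunit of voltage-gated channels, at 17.7 and 16.8 (KO label) against 14.5 and 12.4 CPM per kb (heterozygous label). Orai3, Stim1, Atp2b1, Stim2 and Orai2 ranked next, with means over the libraries of 15.01, 10.9, 10.7, 8.34 and 7.80 CPM per kb. The 4 libraries of Stim1 and of Atp2b1 overlapped, whereas every library of Orai3 lay above every library of Stim1. Pore-forming genes of voltage-gated channels were lower, with Cacna1d, an L-type pore, at 5.76 and 3.50 (KO label) against 3.69 and 3.70 CPM per kb (heterozygous label). In all, 25 members averaged 1 CPM per kb or more and 12 averaged under 0.1 CPM per kb, among them all of the ryanodine receptors but Ryr3. The union of exons can exceed the length of the transcript in use, most of all for genes with many annotated transcripts, and then understates the level per kb.

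**Figure D1:**
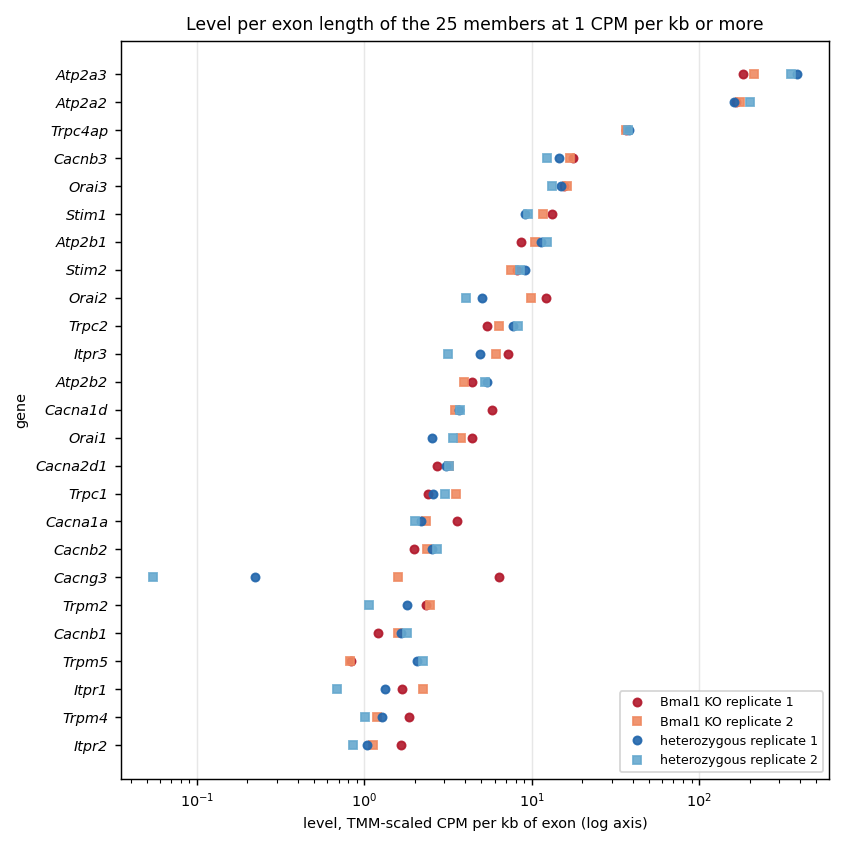
Level of each of the 25 members that averaged 1 CPM per kb or more, in TMM-scaled CPM per kb of exon on a log axis, with 1 point per library (red and orange for the KO label, dark and light blue for the heterozygous label). Atp2a3 and Atp2a2 stand apart at the top, and the blue points of Atp2a3, at 385 and 353, lie to the right of its red and orange points at 184 and 213.

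Of the 55 members, 48 passed the filter on low counts and were tested between the labels. Orai2 and Cacng3 rose and Atp2a3 fell at an adjusted p under 0.05 (edgeR's quasi-likelihood test, Benjamini-Hochberg over all 14649 genes tested), and 45 did not pass. Adjusted p-values are from this edgeR test unless another tool or setting is named. The 3 of 48 stand beside 2.54% of all tested genes past the threshold, the 2 that rose beside 1.2% and the 1 that fell beside 1.34%. At an unadjusted p under 0.05 there were 13 members, against 16.9% of all tested genes. A fitted level was higher in the KO-labelled libraries for 33 members and lower for 15, against 52.4% higher over all tested genes, and the median log2 fold change was 0.42 against 0.024. The libraries of the labels did not overlap for 20 members that were higher, against 25.3% of all tested genes, and for 12 that were lower, against 23.8%. These counts cover the members that passed the filter, and they describe the list without a test of it. Without heterozygous replicate 2, none of the members passed, and 0.162% of all tested genes did; without KO replicate 1 or heterozygous replicate 1, 2 of the 3 still passed.

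**Figure D2:**
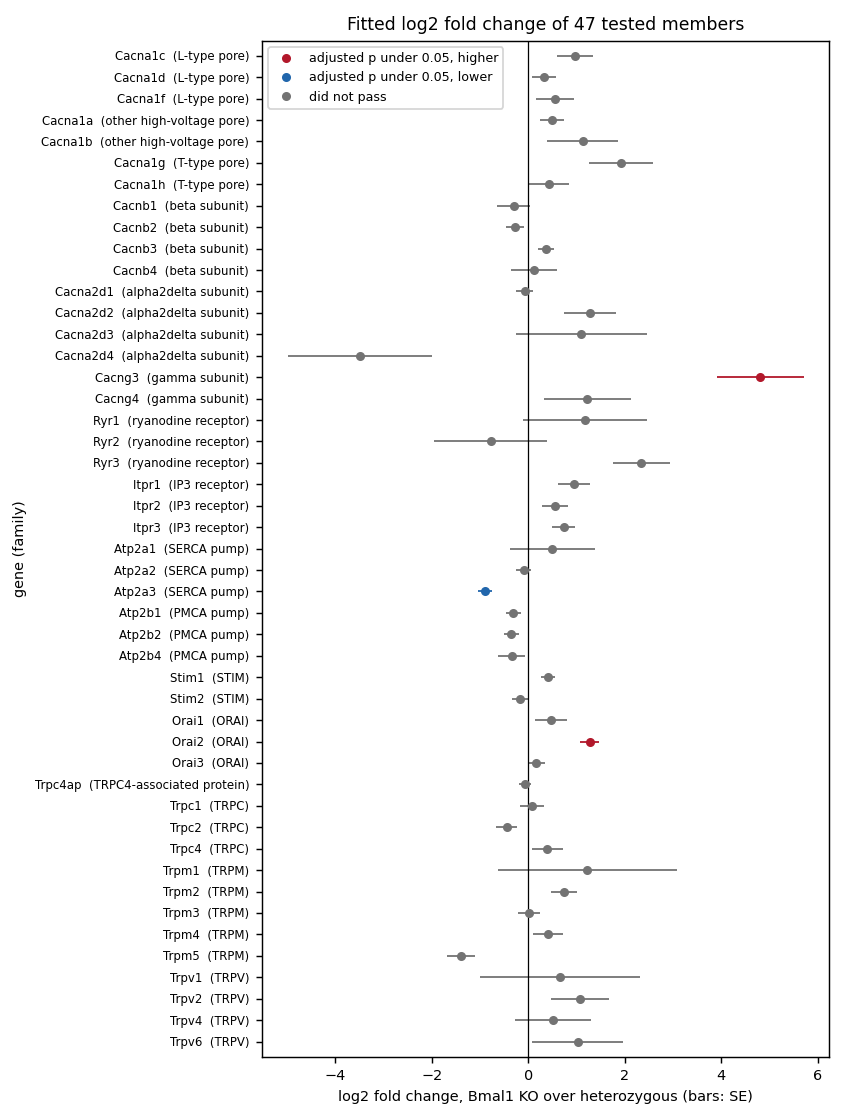
Fitted log2 fold change, KO label over heterozygous label, with its SE as a bar, for 47 of the 48 tested members in order of family. Trpc7, at 0 in both libraries labelled KO, is left out because its fitted value is no measure of size. The 2 red points (Cacng3, Orai2) and the 1 blue point (Atp2a3) passed the threshold, and the grey points did not.

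Among pumps that fill the store, Atp2a3 fell, and the other 2 SERCA genes did not pass. Atp2a3 (chromosome 11, 72961169 to 72993044, GRCm38, plus strand) was at 969.6 and 1124 CPM in the KO-labelled libraries, against 2034 and 1862 CPM in the heterozygous-labelled ones. The labels did not overlap, and the gap was several times the difference between replicates. Means were 1047 ± 109.5 CPM (KO label) and 1948 ± 121 CPM (heterozygous label) (SD, n = 2 each), a log2 fold change of -0.90 (SE 0.14; adjusted p = 0.0265), so the level was 1.86-fold higher in the heterozygous label. In such bulk libraries, fewer cells that express a gene and less RNA per cell cannot be told apart. Atp2a2 was at 1004 and 1069 CPM (KO label) against 986 and 1226 CPM (heterozygous label), groups that overlap, with a log2 fold change of -0.09 (SE 0.15, adjusted p = 0.820). Within a library the share of Atp2a3 among the counts of the 3 SERCA genes needs no scaling between libraries. That share was 49.1% and 51.3% in the KO-labelled libraries, against 67.3% and 60.3% in the heterozygous-labelled ones. Atp2a1, the SERCA gene of fast skeletal muscle, held 37 and 19 counts (KO label) against 27 and 17 (heterozygous label), and 21.9% of its exonic length overlaps exons of Rabep2 on the other strand. The direction of Atp2a3 held in all 13 alternatives (log2 fold change -1.01 to -0.82), and the adjusted p ranged from 1.56e-07 to 0.0994. Without heterozygous replicate 1 it was 0.0994 and without heterozygous replicate 2 it was 0.0980, so the call rests on having both of those libraries.

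PMCA pumps, which move calcium out across the plasma membrane, had 3 of 3 tested members with lower levels in the KO-labelled libraries and none past the threshold, nor at an unadjusted p under 0.05 or by DESeq2. Atp2b1, the one with the most counts, was at 131 and 159 CPM (KO label) against 172 and 187 CPM (heterozygous label), a log2 fold change of -0.31 (SE 0.15; adjusted p = 0.378). Atp2b2 was at 55.0 and 49.3 CPM (KO label) against 67.7 and 65.8 CPM (heterozygous label; log2 fold change -0.36, SE 0.15, adjusted p = 0.307). Atp2b4 was at 8.49 and 9.21 (KO label) against 11.9 and 10.6 CPM (heterozygous label). For all 3 genes the labels did not overlap, and the KO label was the lower, as for 23.8% of all tested genes. Atp2b3 had 17 counts in KO replicate 2 and 0 in the other libraries and was not tested.

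Among the channels that refill the store, Orai2 rose while its relatives did not pass. Orai2 (chromosome 5, 136147459 to 136170713, minus strand) encodes a plasma membrane channel subunit that is known in mouse immune cells to temper store-operated entry through ORAI1. It had 73.9 and 60.3 CPM in the KO-labelled libraries, against 30.8 and 24.6 CPM in the heterozygous-labelled ones. The labels were well apart, and the replicates of each lay closer to each other than to the other label. Means were 67.1 ± 9.61 CPM (KO label) and 27.7 ± 4.37 CPM (heterozygous label) (SD, n = 2 each), a 2.42-fold higher level, with a log2 fold change of 1.28 (SE 0.20; adjusted p = 0.0253). Orai2 took 63.0% and 58.1% of the counts of the 3 ORAI genes in the KO-labelled libraries, against 44.8% and 40.5% in the heterozygous-labelled ones. Orai1, the main pore of store-operated entry, was at 10.1 and 8.68 (KO label) against 5.78 and 7.75 CPM (heterozygous label; log2 fold change 0.47, SE 0.33, adjusted p = 0.539). Orai3 was at 33.3 and 34.8 (KO label) against 32.1 and 28.4 CPM (heterozygous label; log2 fold change 0.17, adjusted p = 0.706). Orai2 was higher in all 13 alternatives (log2 fold change 1.10 to 1.44) and past the threshold in 12, with an adjusted p between 2.18e-06 and 0.167, the last without heterozygous replicate 2.

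The store sensor Stim1 was at 136 and 121 CPM in the KO-labelled libraries, against 94.8 and 98.3 CPM in the heterozygous-labelled ones. The labels did not overlap, yet the log2 fold change of 0.42 did not pass (SE 0.14; adjusted p = 0.205 in edgeR). Stim2, a sensor that responds to smaller losses of store calcium, was at 42.0 and 38.6 (KO label) against 46.8 and 43.9 CPM (heterozygous label; log2 fold change -0.17, adjusted p = 0.671). Summed over the STIM genes the levels were 178 and 160.0 CPM (KO label) against 142 and 142 CPM (heterozygous label).

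BMAL1 and its partner CLOCK bind the E-box, whose core letters are CACGTG, a motif that reads the same on both strands. It was searched in RefSeq promoter windows of 300 bases (GRCm38.p6), from 250 before to 50 after a transcription start. Of the 55 members, 45 had at least 1 window, and 5 of these genes (11.1%) held the motif: Orai2, Itpr3, Atp2b1, Trpm1 and Trpv3. Over all 27025 genes of the RefSeq table the share was 8.09%. Orai2 had 2 matches in its window, which 0.681% of all genes reach. The windows of the member with 2 matches, of the 2 other well-measured genes with 1, and of Atp2a3, which fell and has none, are printed to show where the letters lie. Cacng3, which rose, has no match in its 1 window either, and that window is not printed. Capitals mark CACGTG, and each printed window runs 5′ to 3′ on the strand of the gene.
Orai2 (chr5:136170607-136170906, minus strand): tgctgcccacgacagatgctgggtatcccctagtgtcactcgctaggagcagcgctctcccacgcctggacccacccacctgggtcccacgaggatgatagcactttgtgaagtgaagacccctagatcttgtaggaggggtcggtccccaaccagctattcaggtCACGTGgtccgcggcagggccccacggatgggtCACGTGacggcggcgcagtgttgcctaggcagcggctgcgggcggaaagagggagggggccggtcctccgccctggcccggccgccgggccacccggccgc
Itpr3 (chr17:27057054-27057353, plus strand): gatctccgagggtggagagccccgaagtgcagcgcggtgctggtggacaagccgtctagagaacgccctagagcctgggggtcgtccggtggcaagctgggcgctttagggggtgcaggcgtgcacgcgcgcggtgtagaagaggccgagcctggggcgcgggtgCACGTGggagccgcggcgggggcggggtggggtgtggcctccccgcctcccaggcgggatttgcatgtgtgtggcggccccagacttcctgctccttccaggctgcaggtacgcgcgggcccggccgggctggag
Atp2b1 (chr10:98914392-98914691, plus strand): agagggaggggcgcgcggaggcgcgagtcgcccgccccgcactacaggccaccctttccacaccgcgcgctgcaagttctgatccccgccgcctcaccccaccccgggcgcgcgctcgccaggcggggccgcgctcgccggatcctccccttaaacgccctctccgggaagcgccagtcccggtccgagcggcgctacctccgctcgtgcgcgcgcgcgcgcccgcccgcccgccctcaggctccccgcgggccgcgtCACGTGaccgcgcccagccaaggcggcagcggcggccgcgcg
Atp2a3 (chr11:72960919-72961218, plus strand): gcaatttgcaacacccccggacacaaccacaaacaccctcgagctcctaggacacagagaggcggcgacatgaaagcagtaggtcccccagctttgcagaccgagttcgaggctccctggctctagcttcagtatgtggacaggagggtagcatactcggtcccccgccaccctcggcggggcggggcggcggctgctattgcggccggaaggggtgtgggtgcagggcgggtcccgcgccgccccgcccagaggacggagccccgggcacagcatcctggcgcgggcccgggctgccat
Counted from the start site, the matches of Orai2 began at base -84 and base -51, that of Itpr3 at -85 and that of Atp2b1 at 9. Atp2b1 had 2 windows, and the one not printed, at another start site, held no match. Of these genes, Orai2 rose, Itpr3 was higher without passing and Atp2b1 was lower without passing. Letters alone do not show that a factor binds there, and a window without them says nothing of binding elsewhere.

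**Figure D3:**
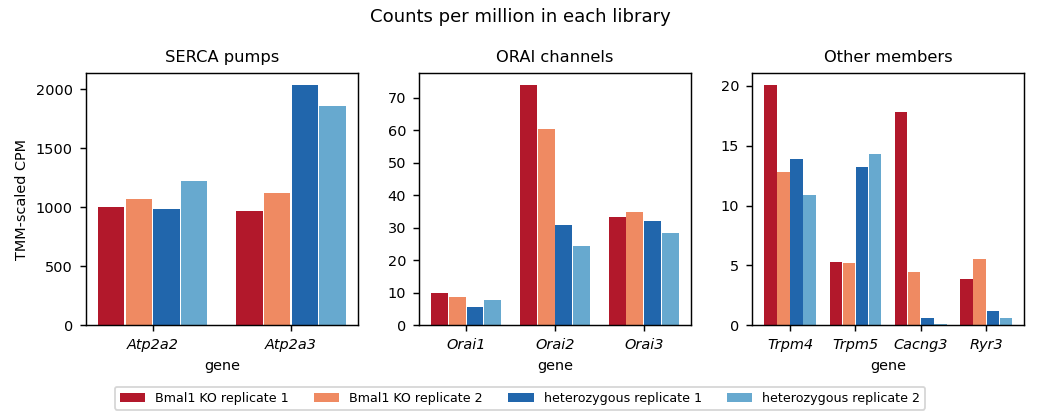
TMM-scaled CPM in each library as bars from 0 for SERCA, ORAI and 4 other members, with the 2 libraries labelled KO (red and orange) left of the 2 labelled heterozygous (blues). Atp2a3 is lower and Orai2 higher in both KO-labelled libraries, at 969.6 and 1124 CPM and at 73.9 and 60.3 CPM, while the bars of Atp2a2 and Orai3 lie close together.

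Of the 6 channels that release stored calcium, 5 had higher fitted levels in the KO-labelled libraries, against 52.4% of all tested genes, and Ryr2 a lower one. None passed in edgeR's test, 3 had an unadjusted p under 0.05, against 16.9% of all tested genes, and DESeq2 called 1 of them, Ryr3. Itpr3, the IP3 receptor with the most counts, was at 65.2 and 55.2 CPM (KO label) against 44.1 and 28.4 CPM (heterozygous label; log2 fold change 0.73 ± 0.24 SE, adjusted p = 0.183). Itpr1 was at 30.7 and 41.1 (KO label) against 24.5 and 12.6 CPM (heterozygous label; log2 fold change 0.95, SE 0.33, adjusted p = 0.209), and Itpr2 at 24.3 and 16.7 (KO label) against 15.2 and 12.6 CPM (heterozygous label). In all 3 the labels did not overlap, as for 25.3% of all tested genes in that direction, and heterozygous replicate 2 was the lowest library. Summed, the IP3 receptors were at 120 and 113 CPM in the KO-labelled libraries, against 83.8 and 53.5 CPM in the heterozygous-labelled ones.

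Ryanodine receptors were scarce. Ryr3 had the most counts over the 4 libraries, though Ryr2 had more in the heterozygous-labelled ones. Ryr3 had 128 and 178 counts in the KO-labelled libraries, against 47 and 21 in the heterozygous-labelled ones. That is 3.90 and 5.56 CPM (KO label) against 1.21 and 0.636 CPM (heterozygous label), with a log2 fold change of 2.35 (SE 0.59; adjusted p = 0.102). It passed in 2 of 13 alternatives, DESeq2 and no filter, with an adjusted p from 0.00988 to 0.502 over all of them. Exons of Aven on the other strand overlap 4.83% of its exonic length. Ryr2, the heart and brain form, had 69 and 3 counts (KO label) against 71 and 64 (heterozygous label), so that KO replicate 2 alone was low, and its log2 fold change of -0.78 (SE 1.17, adjusted p = 0.805) turned positive without that library. Ryr1, the skeletal muscle form, had 17 and 22 counts (KO label) against 19 and 1 (heterozygous label), with heterozygous replicate 2 low.

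All 7 tested voltage-gated pores had a higher fitted level in the KO-labelled libraries, against 52.4% of all tested genes, and none passed. At an unadjusted p under 0.05 there were 2 (Cacna1c and Cacna1g), against 16.9% of all tested genes, and DESeq2 called 0. Cacna1d and Cacna1c encode L-type pores that carry much of the calcium that triggers insulin release in mouse β-cells. Cacna1d was at 72.7 and 44.1 CPM in the KO-labelled libraries, against 46.6 and 46.7 CPM in the heterozygous-labelled ones. KO replicate 1 was thus high and KO replicate 2 was not, and the log2 fold change of 0.32 (SE 0.24; adjusted p = 0.573) became -0.11 without KO replicate 1. Cacna1c was at 26.6 and 12.9 (KO label) against 10.6 and 9.504 CPM (heterozygous label; log2 fold change 0.97, SE 0.37, adjusted p = 0.242). It was past the threshold in 1 of 13 alternatives, without KO replicate 2 (adjusted p = 0.0255), and at 0.33 without KO replicate 1, within a range of adjusted p that reached 0.691. Cacna1f, best known as the L-type pore of the retina, was likewise highest in KO replicate 1, with labels that overlap, at 12.3 and 6.68 (KO label) against 6.79 and 6.14 CPM (heterozygous label). Summed over L-type pores, KO replicate 1 was at 112 CPM and KO replicate 2 at 63.8 CPM, against 64.0 and 62.3 CPM. The 9 early genes listed for dissociation stress were also highest in sum in KO replicate 1, at 1582 CPM. So were the summed markers of acinar (128 CPM), endothelial (17.1 CPM), smooth muscle and mural (10.1 CPM) and neuronal and Schwann cells (104 CPM). Those of stromal, immune, α-, δ- and PP cells were highest in KO replicate 2. What set the levels of these lists, and any link to the L-type pores, was not tested.

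Cacna1a, the P/Q-type pore, was at 40.6 and 26.8 CPM (KO label) against 25.02 and 22.8 CPM (heterozygous label; log2 fold change 0.50 ± 0.24 SE, adjusted p = 0.364). Cacna1b, the N-type pore, had 45 and 179 counts (KO label) against 68 and 47 (heterozygous label), with KO replicate 2 apart from the rest. Of the T-type pores, which open at more negative voltage, Cacna1h was at 3.90 and 4.90 (KO label) against 3.15 and 3.42 CPM (heterozygous label; log2 fold change 0.42, adjusted p = 0.692). Cacna1g had 82 and 88 counts (KO label) against 30 and 20 (heterozygous label), or 2.50 and 2.75 CPM (KO label) against 0.775 and 0.605 CPM (heterozygous label). Its log2 fold change of 1.92 (SE 0.66, adjusted p = 0.205) did not pass, and the labels did not overlap.

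Of the 8 tested β and α2δ subunits, which set surface level and gating of these pores, none passed. At an unadjusted p under 0.05 there was 1, Cacna2d2, against 16.9% of all tested genes, and DESeq2 called 0. Cacnb3, the β subunit with the most RNA, was at 71.1 and 67.5 CPM in the KO-labelled libraries, against 58.0 and 49.6 CPM in the heterozygous-labelled ones (log2 fold change 0.37 ± 0.16 SE, adjusted p = 0.311). Cacnb2 ran the other way at 26.0 and 31.4 (KO label) against 33.6 and 35.7 CPM (heterozygous label; log2 fold change -0.27, SE 0.19, adjusted p = 0.543). Cacnb1 averaged 6.33 CPM for the KO label against 7.79 CPM for the heterozygous label, and Cacnb4 averaged 4.36 CPM for the KO label against 4.02 CPM for the heterozygous label. Of the α2δ subunits, Cacna2d1 was at 33.9 and 39.7 (KO label) against 37.9 and 39.7 CPM (heterozygous label; log2 fold change -0.08, SE 0.18, adjusted p = 0.885). Cacna2d2 was at 14.0 and 5.68 (KO label) against 5.32 and 2.72 CPM (heterozygous label; log2 fold change 1.29, SE 0.54, adjusted p = 0.290), high in KO replicate 1 alone. Cacna2d3 and Cacna2d4 stayed under 1.2 CPM in every library.

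Of the 3 called members, Cacng3 had the largest log2 fold change, at a low level. It encodes a γ-type subunit known in the brain as a partner of AMPA glutamate receptors (chromosome 7, 122670492 to 122769393, plus strand). It had 584 and 142 counts in the KO-labelled libraries, against 24 and 5 in the heterozygous-labelled ones. In CPM these were 17.8 and 4.43 (KO label) against 0.620 and 0.151 (heterozygous label), so the lower KO library still held several times the higher heterozygous one, while KO replicate 1 was far above KO replicate 2. The mean was 11.1 ± 9.44 CPM for the KO label against 0.386 ± 0.331 CPM for the heterozygous label (SD, n = 2 each), a log2 fold change of 4.81 (SE 0.90; adjusted p = 0.0452). It passed in 10 of 13 alternatives and not in limma-voom (adjusted p = 0.169), without KO replicate 1 (0.0935) or without heterozygous replicate 2 (0.147), and its smallest adjusted p was 1.9e-07. Neuronal and Schwann cell markers summed to 104 and 95.9 CPM (KO label) against 70.0 and 63.2 CPM (heterozygous label). Of 5 tested, 4 had a higher fitted level and 1 passed the threshold (Tubb3, higher). Tubb3 was at 57.7 and 48.0 CPM (KO label) against 27.8 and 25.4 CPM (heterozygous label). Elavl4 had a lower fitted level, at 28.3 and 20.4 CPM (KO label) against 29.8 and 26.3 CPM (heterozygous label). The part of such cells in the values of Cacng3 was not tested. Cacng4 was at 0.700 and 1.09 (KO label) against 0.310 and 0.454 CPM (heterozygous label).

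Among TRP channels none of 13 tested passed in edgeR's test, and Trpm5 and Trpc7 came nearest. At an unadjusted p under 0.05 there were 3 (Trpm5, Trpc7 and Trpm2), against 16.9% of all tested genes, and DESeq2 called Trpm5 and Trpc7. Trpm5, a calcium-activated channel for monovalent cations that acts in taste cells and in β-cells, had 5.30 and 5.21 CPM in the KO-labelled libraries, against 13.2 and 14.3 CPM in the heterozygous-labelled ones. Replicates lay almost on each other and the labels were far apart, with means of 5.26 ± 0.0587 CPM for the KO label against 13.8 ± 0.754 CPM for the heterozygous label (SD, n = 2 each). The log2 fold change was -1.39 (SE 0.29, edgeR adjusted p = 0.0625). It was lower in all 13 alternatives (-1.45 to -1.24) and passed in 2, DESeq2 and no filter, with an adjusted p from 0.00142 to 0.353. Tssc4, on the opposite strand, overlaps 3.44% of its exonic length and had 246 and 277 CPM (KO label) against 347 and 362 CPM (heterozygous label). Counting without strand cannot separate them there, and the part of Tssc4 in the values of Trpm5 was not tested. Trpm4, the close relative of Trpm5, was at 20.0 and 12.8 (KO label) against 13.8 and 10.9 CPM (heterozygous label; log2 fold change 0.41, SE 0.31, adjusted p = 0.571).

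Trpc7, a channel opened by diacylglycerol, had 0 counts in both libraries labelled KO, against 51 and 55 in the heterozygous-labelled ones. With a floor of 3 counts per library this is at least 16.1-fold lower in these KO-labelled libraries. The bound covers counting error only, not the spread between libraries, and Trpc7 passed the filter only through the heterozygous-labelled libraries. The adjusted p was 0.0510 in edgeR's test and ranged from 0.00092 to 0.362 over 12 alternatives, 5 of which passed. Trpc1 was at 19.3 and 28.2 (KO label) against 20.7 and 24.3 CPM (heterozygous label; log2 fold change 0.08, adjusted p = 0.922), and Trpc4 at 9.59 and 7.84 (KO label) against 6.95 and 6.36 CPM (heterozygous label). Trpc2, a channel gene of the mouse vomeronasal organ, was at 15.5 and 18.2 (KO label) against 22.2 and 23.8 CPM (heterozygous label). A longer gene model that runs through it, Xntrpc, covers 97.5% of its exons, so these reads need not belong to Trpc2 alone. Trpc4ap was at 318 and 319 (KO label) against 335 and 331 CPM (heterozygous label), with replicates close together and a log2 fold change of -0.06.

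Trpm2, a channel opened by ADP-ribose and oxidative stress, was at 29.1 and 30.7 CPM in the KO-labelled libraries, against 22.3 and 13.3 CPM in the heterozygous-labelled ones (log2 fold change 0.75 ± 0.27 SE, adjusted p = 0.229). Trpm3, a heat- and steroid-activated channel, was at 18.4 and 17.4 (KO label) against 16.3 and 19.1 CPM (heterozygous label), with a log2 fold change of 0.01. Trpv2 was at 3.47 and 4.09 (KO label) against 2.53 and 1.03 CPM (heterozygous label; log2 fold change 1.08, SE 0.60, adjusted p = 0.431). Macrophages also express Trpm2 and Trpv2. The summed immune markers were at 189 and 574 CPM (KO label) against 172 and 189 CPM (heterozygous label). None of 7 tested immune markers passed, and Lyz2 alone was at 322 CPM in KO replicate 2. The part of macrophages in the values of Trpm2 and Trpv2 was not tested. Trpv1, Trpv4, Trpv6 and Trpm1 stayed between 0 and 3.03 CPM.

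The 7 members that did not pass the filter were Cacna1e, Cacna1i, Cacna1s, Cacng2, Atp2b3, Trpc5 and Trpv3. Cacna1e, the R-type pore, had 0 and 19 counts in the KO-labelled libraries, against 11 and 1 in the heterozygous-labelled ones. Cacna1s, the L-type pore of skeletal muscle, had 12 and 5 counts (KO label) against 0 and 0. (heterozygous label) Cacng2 had 5 and 39 (KO label) against 11 and 7 (heterozygous label), and the remaining genes summed to between 17 and 33 counts. Their levels were at most 1.22 CPM, and differences between labels were not tested for them. The libraries of the labels did not overlap for Cacna1s and for Trpc5, which had 18 and 3 counts in the KO-labelled libraries, against 0 and 2 in the heterozygous-labelled ones.

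The median ratio between replicates was 1.21 among KO-labelled and 1.13 among heterozygous-labelled libraries, over the 39 tested members that averaged 1 CPM or more. A gap of 2-fold or more between replicates was found for 6 of these in the KO label (Cacna1b, Cacna1c, Cacna2d2, Cacng3, Ryr2 and Trpv4) and for 3 in the heterozygous label (Cacng3, Trpv2 and Trpv4).

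Of 118 other genes of calcium handling, 96 were tested, and 3 rose, 0 fell and 93 did not pass, a count near the background of 2.54% of all tested genes. Camkk2, a kinase switched on by calcium and calmodulin, was at 116 and 95.1 CPM in the KO-labelled libraries, against 54.2 and 43.6 CPM in the heterozygous-labelled ones (log2 fold change 1.11 ± 0.18 SE, adjusted p = 0.0293). Camk4, a nuclear kinase downstream of it, had 976 and 442 counts (KO label) against 87 and 16 (heterozygous label; log2 fold change 3.97, SE 0.71, adjusted p = 0.0396). Jph4, a junctophilin that holds the plasma membrane near the store in mouse neurons, was at 41.3 and 42.3 (KO label) against 20.8 and 16.3 CPM (heterozygous label; log2 fold change 1.17, SE 0.20, adjusted p = 0.0349). For all 3 the libraries of the labels did not overlap, which held with a higher level for 25.3% of all tested genes. By list, 2 of 24 genes of calmodulin, its kinases and calcineurin rose, and 1 of 16 regulators of store entry and release. None passed among 11 mitochondrial genes (the gene with the smallest p was Letm1, log2 fold change -0.54), 9 exchangers and transporters (Atp2c1, log2 fold change -0.32), 14 other cation channels (Piezo1, log2 fold change 3.18) and 7 regulators of voltage-gated channels (Gem, log2 fold change 0.68). None passed either among 5 calcium buffers (Calb1, log2 fold change 0.77) and 10 phospholipases C (Plcd3, log2 fold change 4.02). Lower genes numbered 0 in edgeR's adjusted test, 3 by DESeq2 and 8 at an unadjusted p under 0.05 in edgeR. In either direction DESeq2 called 8.05% of all tested genes, and 16.9% had such an unadjusted p.

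**Figure D4:**
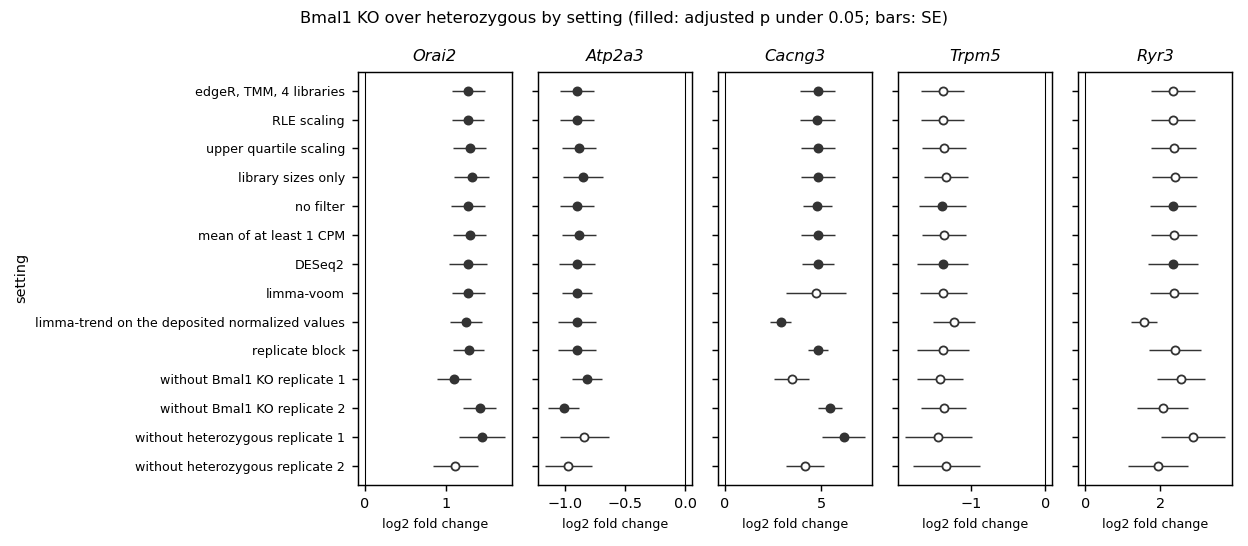
Log2 fold change of 5 members, KO label over heterozygous label, under the main test and 13 other settings, with SE as bars and filled points where the adjusted p was under 0.05. All points of each gene lie on 1 side of 0, and without heterozygous replicate 2 none of the 5 is filled (Orai2 is at an adjusted p of 0.167 there).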

How the data were processed

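Per the labels' protocols, RNA extraction used RNeasy Plus Micro columns, and library preparation used Clontech's SMART-Seq v4 chemistry, which keeps no strand information. The build mm10 and the tools STAR and edgeR appear, per the submitters' processing notes, without version or role; the counting tool, its settings and the annotation are named in none of the sources. The authors deposited whole-number counts per gene symbol without normalization, which were used for all main tests. They also deposited scaled values (treated as a signal) that match the counts times 1 constant per library: whole reads were recovered for 99.97% to 99.99% of values (tolerance 0.01), and edgeR on those reads, an alternative chosen after seeing the data, called 3 members and 372 genes.

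Low genes were removed by filterByExpr (the CPM that equals 10 counts at the median library size, reached in at least 2 libraries, and 15 counts in total). After TMM scaling, edgeR 4.0.16 in R 4.3.3 fitted and tested each gene (glmQLFit, glmQLFTest), with label as the only term, 2-sided, adjusted by Benjamini-Hochberg at 0.05. The procedure was tested on simulated data. Replicates within a label were not copies of each other: chi-square over its degrees of freedom was 66.8 between KO-labelled and 44.0 between heterozygous-labelled replicates.

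Named members were those past the threshold, the highest and the smallest p per family, the 5 largest non-overlapping changes at a mean of 1 CPM or more and 14 fixed genes; others are given by counts or levels. The members and lists were chosen with earlier results of these data known. Coordinates, exon lengths and overlaps are from GENCODE M21 (GRCm38), where all 55 symbols matched; exons of 7 members overlap another protein-coding gene. Alternatives were other scalings, filters and tools (DESeq2 1.42.0, limma 3.58.1 as voom and, on the deposited values with a pseudocount of 1, as trend), a replicate block, leaving out each library and a threshold of 0.1.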

Additional observations from a re-analysis of the deposited data

How the results depend on the processing

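Counts of genes past the threshold depended on the setting more than directions did. Over all genes, 176 were higher and 196 lower, with 430 and 378 without a filter, 619 and 560 by DESeq2, and 378 and 350 at a threshold of 0.1; leaving out 1 library gave 17 to 404 higher and 8 to 422 lower. Of the members, 2 were higher (1 by limma-voom, 3 without a filter and by DESeq2). A lower level was called for 1 member (2 by upper quartile scaling, by library sizes only and by limma-voom, 3 without a filter, by DESeq2 and at a threshold of 0.1). Of the other calcium genes 3 were higher (5 without a filter and by DESeq2, 0 to 4 with 1 library left out) and 0 lower (3 by DESeq2, 0 to 2 with 1 library left out). The median log2 fold change of the members was 0.30 to 0.48 with 1 library left out. Where a label is left with 1 library, that library is assumed to vary like the other label, and more genes enter the test. With the replicate number as a block, 313 genes were higher and 278 lower, and the same 3 members passed. Deviations of same-numbered libraries did not go together (correlation -0.018 across genes). That shows no shared deviation by number, but it cannot tell whether same-numbered libraries were collected or processed together. Signs turned for Atp2a2 (0.059 without heterozygous replicate 2), Cacna1d (-0.11 without KO replicate 1), Cacna2d1 (0.0077 without KO replicate 1), Ryr2 (0.15 without KO replicate 2) and Trpc1 (-0.22 without KO replicate 2, -0.041 without heterozygous replicate 1), none of which had passed. Leaving out 1 library, their log2 fold changes ran from -0.25 to 0.059 (Atp2a2), -0.11 to 0.64 (Cacna1d), -0.20 to 0.0077 (Cacna2d1), -4.30 to 0.15 (Ryr2) and -0.22 to 0.30 (Trpc1). The cause of these shifts was not tested.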

Other observations

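Of 4 genes picked after their values were seen, 3 of mitochondrial calcium transport and 1 of calmodulin, none passed edgeR's adjusted threshold, and the libraries of the labels did not overlap for any. Such a gap was found for 25.3% of all tested genes as higher and 23.8% as lower. Mcu, the pore of the uniporter, was at 14.5 and 14.1 CPM in the KO-labelled libraries, against 21.9 and 21.1 CPM in the heterozygous-labelled ones (log2 fold change -0.59 ± 0.22 SE, adjusted p = 0.230). Letm1, an ion exchanger of the inner membrane, was at 95.4 and 104 (KO label) against 132 and 158 CPM (heterozygous label; log2 fold change -0.54, SE 0.16, adjusted p = 0.144). Slc24a6, an older symbol of the mitochondrial sodium-calcium exchanger that lets calcium out, ran the other way at 9.80 and 13.9 (KO label) against 7.51 and 6.39 CPM (heterozygous label; log2 fold change 0.77, SE 0.32, adjusted p = 0.289). Calm2, 1 of the calmodulin genes, was at 222 and 208 (KO label) against 276 and 300.4 CPM (heterozygous label; log2 fold change -0.42, SE 0.14, adjusted p = 0.181).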
